A study of Homo sapiens with 8 samples.

Results

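Integrins and laminins were followed as 2 linked gene families, the receptors that hold cells to the matrix and the sheet-forming proteins many of them bind. Members were the protein-coding genes whose symbol is ITGA or ITGB followed by a number or by V, L, M, X, D or E, or LAMA, LAMB or LAMC followed by a number. The rule found 38 of the 38010 Ensembl gene IDs in the count table, made up of 18 integrin alpha chains, 8 integrin beta chains and 12 laminin chains. It left out 4 genes with similar symbols, ITGB1BP1, ITGB1BP2, ITGB3BP and ITGBL1, which encode no chain of either family.

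Each integrin is a pair of 1 alpha and 1 beta chain, and the pair decides the ligand. ITGB1 pairs with most alpha chains to bind collagen, laminin or fibronectin, ITGAV pairs with several beta chains to bind proteins that carry an arginine-glycine-aspartate (RGD) motif, and ITGB2 and ITGB7 serve leukocytes. Laminins are trimers of an alpha, a beta and a gamma chain that polymerise into the basement membrane, where endothelial vessels are known for trimers that hold LAMA4 or LAMA5.

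RNA was sequenced from confluent cultures of Ea.hy926, a human line made by fusing umbilical vein endothelial cells with the lung carcinoma line A549. The parental line (labelled Eahy) and a Rho0 line, which lacks oxidative phosphorylation, were each sampled as 4 biological replicates. Rho0 is the usual name for cells without mitochondrial DNA, and the way this line was made was not given in the sources used here. There is 1 line of each kind, so a difference between lines that has nothing to do with respiration cannot be told apart from its loss. In bulk RNA, a transcript held by more cells and one held at a higher level per cell cannot be told apart either.

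Libraries held between 11721708 and 37203507 estimated counts, and 1 count was worth 0.0225 to 0.0753 CPM, the unit of depth-scaled counts used below. Messenger RNA of mitochondrial DNA took 16.05% to 21.4% of the counts in parental libraries and 0.00296% to 0.149% in Rho0 libraries. Rho0 replicate 4 lay outside the range of the other 3 Rho0 libraries for 25 of the 33 chains that could be tested, against 74.8% of all genes. Endothelial markers were present in both lines at a summed 7643 to 8640 CPM (parental) and 7750 to 8901 CPM (Rho0).

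The RefSeq promoter table gave windows for 26 of the 38 members, 33 in all, and 4 stretches are shown because they stand before the genes with the largest rise (ITGA4), the largest fall among abundant chains (ITGA10) and a pair of neighbours of which 1 fell (LAMB1 and LAMB4). Each is the part of the 250 bases upstream of the start that holds no exon of the gene in GENCODE 29, in build GRCh38.p14, 5′ to 3′ on the gene's own strand. Capitals mark CG dinucleotides. The stretches lie at chr2:181457136-181457201 on the plus strand (ITGA4) and, on the minus strand, at chr1:145910190-145910300 (ITGA10), chr7:108003256-108003411 (LAMB1) and chr7:108130362-108130611 (LAMB4).
ITGA4: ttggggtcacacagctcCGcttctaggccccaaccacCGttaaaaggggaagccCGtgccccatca
ITGA10: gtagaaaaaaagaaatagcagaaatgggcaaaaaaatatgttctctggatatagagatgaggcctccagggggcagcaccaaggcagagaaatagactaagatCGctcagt
LAMB1: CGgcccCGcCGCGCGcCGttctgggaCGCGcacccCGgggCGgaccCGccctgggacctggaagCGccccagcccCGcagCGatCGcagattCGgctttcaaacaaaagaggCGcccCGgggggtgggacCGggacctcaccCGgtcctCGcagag
LAMB4: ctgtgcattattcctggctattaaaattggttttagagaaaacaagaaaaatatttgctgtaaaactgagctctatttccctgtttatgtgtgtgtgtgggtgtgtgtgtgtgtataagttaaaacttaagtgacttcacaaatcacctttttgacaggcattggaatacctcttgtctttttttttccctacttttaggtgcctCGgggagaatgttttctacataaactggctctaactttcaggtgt
Over the full 250 bases the ITGA4 window held 25 CG dinucleotides and the LAMB1 window 28, more than 78.4% and 84.1% of the 35116 windows in the table, whose median was 11. The ITGA10 and LAMB4 windows held 1 each, and 6.06% of windows held fewer. Among other motifs, each read on both strands, the AP-1 motif TGANTCA was in 2 of 33 member windows (1 of LAMA3 and 1 of LAMB3) and in 6.57% of all windows. The GC box GGGCGG was in 17 of the 33 and in 42.6% of all windows. A match describes the letters of the window and is no evidence of binding.

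In both families more chains were higher than lower in Rho0. Of the 33 chains that passed the filter on low counts, 18 were higher in Rho0, 5 were lower and 10 were not called by edgeR's quasi-likelihood test at an adjusted p of 0.05. Among all 15184 genes tested, 54.4% were called, with 29.0% called higher and 25.4% called lower. The median log2 fold change (Rho0 against parental) was 0.49 over the 33 chains and 0.05 over all genes. The values of the 4 parental and 4 Rho0 libraries did not overlap for 25 of the 33 chains, against 50.9% of all genes. Where a sentence below gives 2 sets of values, parental replicates 1 to 4 come first and Rho0 replicates 1 to 4 second.

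By chain type, 6 of 14 alpha chains rose and 3 fell, 6 of 8 beta chains rose and 1 fell, 4 of 5 laminin alpha chains rose, and 0 of 4 laminin beta chains rose and 1 fell. A chain had to reach the count filter in at least 4 of the 8 libraries, and 3 chains, ITGB6, ITGB7 and LAMA1, reached it in Rho0 libraries alone, so the filter itself favoured a rise for them. ITGA4 reached it in 2 parental and 4 Rho0 libraries, ITGAD in 1 and 4, and LAMB4 in 4 and 1. Each of these would have failed without the line that reached it in 4, so the filter also favoured a fall for LAMB4.

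Scaling by library size alone, without the trimmed-mean (TMM) factors used elsewhere, moved the median of all genes from 0.05 to 0.44 and that of the chains to 0.89, so the gap between them stayed at 0.44. That scaling called 26 chains higher and 3 lower (89.7% of the called chains higher, against 78.3%). Among all genes called, the share of higher ones moved in the same step from 53.3% to 84.8%. By that share alone, the chains stood close to the background there. Counted over all tested, 26 of 33 chains were higher with that scaling, against 56.5% of all genes. So were 3 of 4 laminin beta chains and 10 of 14 integrin alpha chains. Without Rho0 replicate 4, 21 chains were higher and 5 lower, with 8 alpha chains and 1 laminin beta chain among the higher ones.

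**Figure D1:**
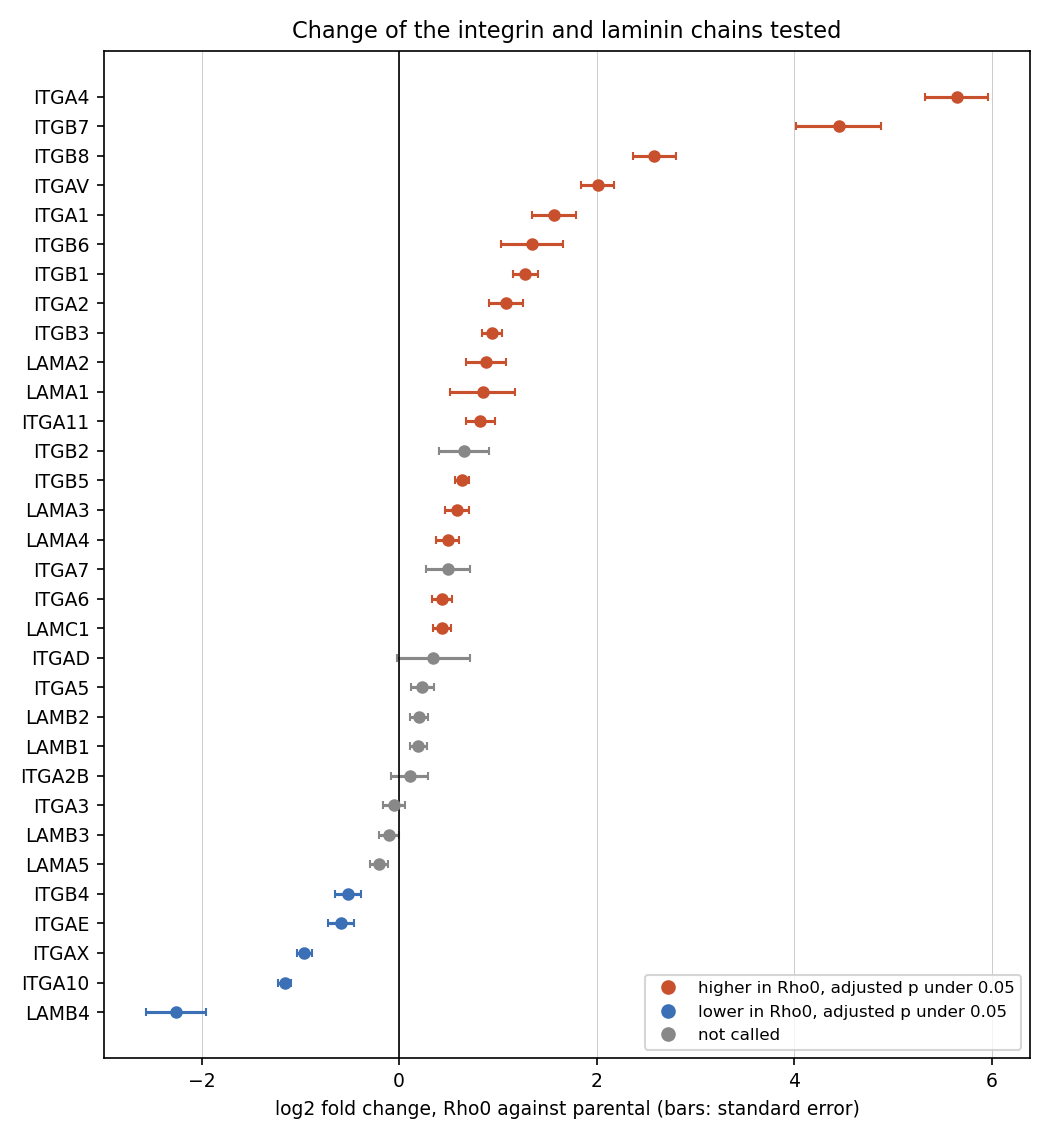
Log2 fold change of 32 tested chains, Rho0 against parental, with bars for the standard error and colour for the call by edgeR. ITGA4 lies farthest to the right at 5.64 and LAMB4 farthest to the left at -2.26, and the 5 chains called lower are LAMB4, ITGA10, ITGAX, ITGAE and ITGB4.

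The vitronectin receptor chain and its beta partners ITGB3, ITGB5 and ITGB8 rose, as did ITGB6, which reached the count filter in Rho0 libraries alone. ITGAV (ENSG00000138448; chromosome 2, 186590065 to 186680901), the alpha chain shared by the receptors for vitronectin, fibronectin and latent TGF-beta, had 44.3, 41.4, 36.3 and 45.2 CPM in parental replicates 1 to 4 and 128, 152, 159 and 234 CPM in Rho0 replicates 1 to 4. The lowest Rho0 library held more than the highest parental library, and replicate 4 was the highest of Rho0. ITGAV was 4.03-fold higher in Rho0 (log2 fold change 2.01, standard error 0.17, adjusted p = 3.5e-06 by edgeR).

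ITGB3, the beta chain of the endothelial and platelet vitronectin and fibrinogen receptors, had 88.7, 75.7, 100.2 and 80.4 CPM in the parental libraries and 144, 174, 175 and 167 CPM in Rho0. Its groups did not overlap, and the log2 fold change was 0.94 (standard error 0.10, adjusted p = 2.1e-05 by edgeR). GENCODE 29 places a further coding gene, AC068234.1, on the same strand over 51.6% of the exon bases of ITGB3. That gene had 0.648 ± 0.821 and 3.55 ± 1.62 CPM (SD, n = 4), little beside ITGB3, but reads in the shared exons cannot be assigned with certainty.

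ITGB5, whose pair with ITGAV binds vitronectin, had 193, 190.1, 215 and 203 CPM and 327, 328, 297 and 293 CPM (log2 fold change 0.64, standard error 0.07, adjusted p = 2.9e-05 by edgeR). It varied least among the beta partners within each line. ITGB8, which with ITGAV activates latent TGF-beta, rose 5.99-fold, from 1.88, 1.83, 1.6 and 1.91 CPM in the parental libraries to 7.74, 9.80, 10.0 and 15.6 CPM in Rho0 (log2 fold change 2.58, standard error 0.22, adjusted p = 3.7e-06 by edgeR). ITGB6, the epithelial activator of latent TGF-beta, reached at most 1.05 CPM in any library and was higher in Rho0, at 0.505, 1.05, 0.772 and 0.834 CPM against 0.367, 0.199, 0.361 and 0.279 CPM (log2 fold change 1.35, standard error 0.32, adjusted p = 0.00432 by edgeR). The count filter favoured a rise of ITGB6, since no parental library reached it. Another transcript, AC092153.1, covers 20.6% of the exon bases of ITGB6 on the same strand.

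ITGA2B, which pairs with ITGB3 alone to form the platelet fibrinogen receptor, had 1.06, 1.31, 1.19 and 1.12 CPM in the parental libraries and 1.52, 1.13, 1.11 and 1.22 CPM in Rho0. The groups overlapped, and the gene was not called (log2 fold change 0.11, standard error 0.19, adjusted p = 0.654 by edgeR), with a sign that turned to -0.04 without Rho0 replicate 1. Of 8 platelet markers, 2 (PF4 and PPBP) were at 0 in all libraries, and the 1 that could be tested was higher in Rho0 (log2 fold change 1.44).

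Among collagen receptors, which all pair with ITGB1, 3 alpha chains rose and the most abundant in the parental line fell. ITGA10 (ENSG00000143127; chromosome 1, 145891208 to 145910189), known from cartilage and shown above with a promoter nearly free of CG, had 273, 265, 265 and 268 CPM in the parental libraries and 127, 124, 112 and 117 CPM in Rho0. The libraries of each line lay close together and far from those of the other line. ITGA10 was 2.23-fold lower in Rho0 (log2 fold change -1.16, standard error 0.06, adjusted p = 1.4e-07 by edgeR).

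ITGA2, the collagen receptor chain of platelets, epithelium and endothelium, moved the other way, from 102, 104, 98.2 and 100.3 CPM to 149, 192, 217 and 297 CPM. All parental libraries lay within 98.2 to 104 CPM, while Rho0 libraries spread from 149 to 297. The log2 fold change was 1.08 (standard error 0.17, adjusted p = 3.3e-04 by edgeR). On the CPM per kilobase scale, the ratio of ITGA2 to ITGA10 went from 0.253 ± 0.00650 in the parental line to 1.21 ± 0.391 in Rho0 (SD, n = 4 each), and the ranges of 0.248 to 0.262 and 0.788 to 1.70 did not overlap.

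ITGA1 and ITGA11, collagen receptor chains known from microvessels and fibroblasts, were low in both lines. ITGA1 had 4.86, 4.93, 4.33 and 3.35 CPM in the parental libraries and 8.64, 12.1, 12.6 and 18.5 CPM in Rho0 (log2 fold change 1.57, standard error 0.22, adjusted p = 1.6e-04 by edgeR). ITGA11 had 3.72, 4.33, 3.30 and 2.74 and 6.26, 5.80, 6.0 and 6.85 CPM (log2 fold change 0.82, standard error 0.15, adjusted p = 7.3e-04 by edgeR). Neither chain overlapped between the lines. ITGA1 shares 2.56% of its exon bases with the coding gene PELO on the same strand, which had 12.6 ± 0.286 and 17.0 ± 1.04 CPM.

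The laminin receptors divided, with ITGA6 higher, ITGB4 lower and ITGA3 not called. ITGA3, which binds LAMA5 and LAMA3 trimers with ITGB1, had 1167, 1165, 1363 and 1141 CPM in the parental libraries and 1307, 1213, 1150.3 and 994 CPM in Rho0, and the groups overlapped (log2 fold change -0.05, standard error 0.11, adjusted p = 0.713 by edgeR). Its sign was not settled: it was 0.0066 without parental replicate 3, 0.011 without Rho0 replicate 4 and 0.34, then called, when scaled by library size alone.

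ITGA6 (ENSG00000091409; chromosome 2, 172427354 to 172506282), which pairs with ITGB1 or ITGB4, had 308, 295, 299 and 299.7 CPM in the parental libraries and 333, 391, 409 and 491 CPM in Rho0, with no overlap. Its log2 fold change was 0.43 (standard error 0.10, adjusted p = 0.00503 by edgeR). ITGB4 (ENSG00000132470; chromosome 17, 75721328 to 75757818), whose long cytoplasmic tail anchors the hemidesmosome to keratin and which pairs with ITGA6 alone, had 880.0, 879, 1087 and 844 CPM and 698, 717, 672 and 496 CPM. Every Rho0 library lay below every parental library, replicate 4 lowest. ITGB4 was 1.43-fold lower (log2 fold change -0.51, standard error 0.13, adjusted p = 0.00685 by edgeR), a call that was lost when libraries were scaled by size alone (-0.12, adjusted p = 0.311 by edgeR).

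Within a library the scaling drops out. The ratio of ITGA6 to ITGB4, in CPM per kilobase, was 0.611, 0.585, 0.481 and 0.619 in the parental libraries and 0.831, 0.952, 1.06 and 1.73 in Rho0. Parental ITGB4 thus exceeded ITGA6 in each of 4 libraries, and ITGA6 exceeded ITGB4 in 2 of 4 Rho0 libraries, or in 1 of 4 with the median length over coding transcripts. Means were 0.574 ± 0.0639 and 1.14 ± 0.400 (SD, n = 4 each), with no overlap between the lines. ITGA7, the laminin receptor chain of muscle, was at 0.734 to 1.03 and 1.01 to 1.66 CPM and was not called (log2 fold change 0.49, standard error 0.22, adjusted p = 0.0856 by edgeR), although it was called without Rho0 replicate 4 (0.61, adjusted p = 0.0425 by edgeR). Of the 16 alternatives that could fit ITGA7, 3 called it higher.

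ITGB1 and ITGA4 rose, and ITGA5 was not called. ITGB1 (ENSG00000150093; chromosome 10, 32900319 to 33005792), the shared partner of collagen, laminin and fibronectin receptors, had 389.6, 384, 342 and 393 CPM in the parental libraries and 755, 824, 942 and 1138 CPM in Rho0. All Rho0 libraries lay far above all parental libraries. It was 2.42-fold higher in Rho0 (log2 fold change 1.28, standard error 0.13, adjusted p = 1.1e-05 by edgeR).

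ITGA5 (ENSG00000161638), the classical fibronectin receptor chain, had 1134, 1211, 1385 and 1156 CPM in the parental libraries and 1539.6, 1559, 1445 and 1205 CPM in Rho0. The groups overlapped and the gene was not called (log2 fold change 0.23, standard error 0.11, adjusted p = 0.106 by edgeR). Of 17 alternative ways of processing, 3 called it higher. These were the fit without Rho0 replicate 4 (0.30, adjusted p = 0.0183 by edgeR), the correction for GC and transcript length (0.28) and scaling by library size alone (0.63).

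ITGA4 (ENSG00000115232; chromosome 2, 181457202 to 181536187), the chain of VLA-4 that binds VCAM1 and an alternatively spliced part of fibronectin, showed the largest change of both families. Parental libraries held 9, 10, 12 and 11 counts, and Rho0 libraries held 546, 302, 531 and 1585. In CPM these were 0.413, 0.398, 0.619 and 0.512 and 15.3, 22.8, 22.8 and 35.7, so the gene was near the floor in each parental library and at least 15.3 CPM in each Rho0 library. ITGA4 was 50.03-fold higher (log2 fold change 5.64, standard error 0.31, adjusted p = 1.5e-07 by edgeR). Its ligand VCAM1 was at 0 in all 8 libraries.

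ITGB7, which pairs with ITGA4 in lymphocytes that home to the gut, summed to 3 counts over the parental libraries and to 100 over Rho0, after rounding. The ratio per scaled library was 25.1, with an exact 95% interval of 8.35 to 124 that covers counting error only. That interval pools the libraries of each line and leaves out the spread between replicates. ITGB7 reached the count filter in Rho0 libraries alone, so the filter favoured a rise for it. In CPM, Rho0 libraries stood at 0.926, 0.603, 0.986 and 0.811 and no parental library was above 0.0465. The coding gene ZNF740 runs over 42.1% of the exon bases of ITGB7 on the other strand and was also higher in Rho0 (41.9 ± 2.11 and 51.3 ± 1.04 CPM, SD, n = 4). The kit keeps the strand, but the use of strand in counting was not given in the sources used here, and the part of ZNF740 in the ITGB7 counts was not tested.

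The chains of leukocyte receptors did not move together. ITGAX (CD11c), the alpha chain of a complement receptor of dendritic cells, had 50.9, 55.5, 57.8 and 48.7 CPM in the parental libraries and 28.5, 26.8, 28.0 and 25.9 CPM in Rho0. The groups were far apart, and ITGAX was 1.95-fold lower (log2 fold change -0.96, standard error 0.08, adjusted p = 2.4e-06 by edgeR). Its sole beta partner ITGB2 had 0.780, 0.795, 1.08 and 0.465 and 1.15, 1.36, 0.986 and 1.42 CPM and was not called (log2 fold change 0.66, standard error 0.26, adjusted p = 0.050004 by edgeR), but was called without parental replicate 3 (0.84, adjusted p = 0.0256 by edgeR). Of the 16 alternatives that could fit ITGB2, 4 called it higher. On the CPM per kilobase scale ITGAX stood at 13.3 ± 1.04 in the parental line and 6.84 ± 0.293 in Rho0, and ITGB2 at 0.246 ± 0.0794 and 0.386 ± 0.0623.

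ITGAE (CD103), which with ITGB7 binds E-cadherin, went from 4.13, 4.37, 3.92 and 5.07 CPM to 2.64, 3.24, 2.92 and 2.95 CPM, without overlap (log2 fold change -0.59, standard error 0.13, adjusted p = 0.00323 by edgeR). Scaled by library size alone it was not called (-0.20, adjusted p = 0.279 by edgeR). HASPIN lies on the other strand over 6.41% of the ITGAE exon bases and was also lower, at 11.5 ± 1.0 and 8.07 ± 0.746 CPM. ITGAD (CD11d) was at 0.159 to 0.688 and 0.472 to 0.527 CPM and was not called (log2 fold change 0.35, standard error 0.37, adjusted p = 0.452 by edgeR).

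Integrin chains that failed the count filter were ITGA8, ITGA9, ITGAL and ITGAM, with the laminin chain LAMC3 the only other member. Estimated counts per library were at most 8.27 for ITGA8, a nephronectin receptor chain, and 1 for ITGA9, a tenascin receptor chain. They were at most 13.3 for ITGAL (LFA-1), 6 for ITGAM (Mac-1) and 12 for LAMC3. Fitted without a filter, 0 of these 5 were called (lowest adjusted p = 0.111 by edgeR, with ITGAL and ITGAM at an unadjusted p of 0.0424 and 0.0479). DESeq2 gave an adjusted p to 4 of them and called 0 (lowest adjusted p = 0.178), with 0 of the 5 at an unadjusted p under 0.05.

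**Figure D2:**
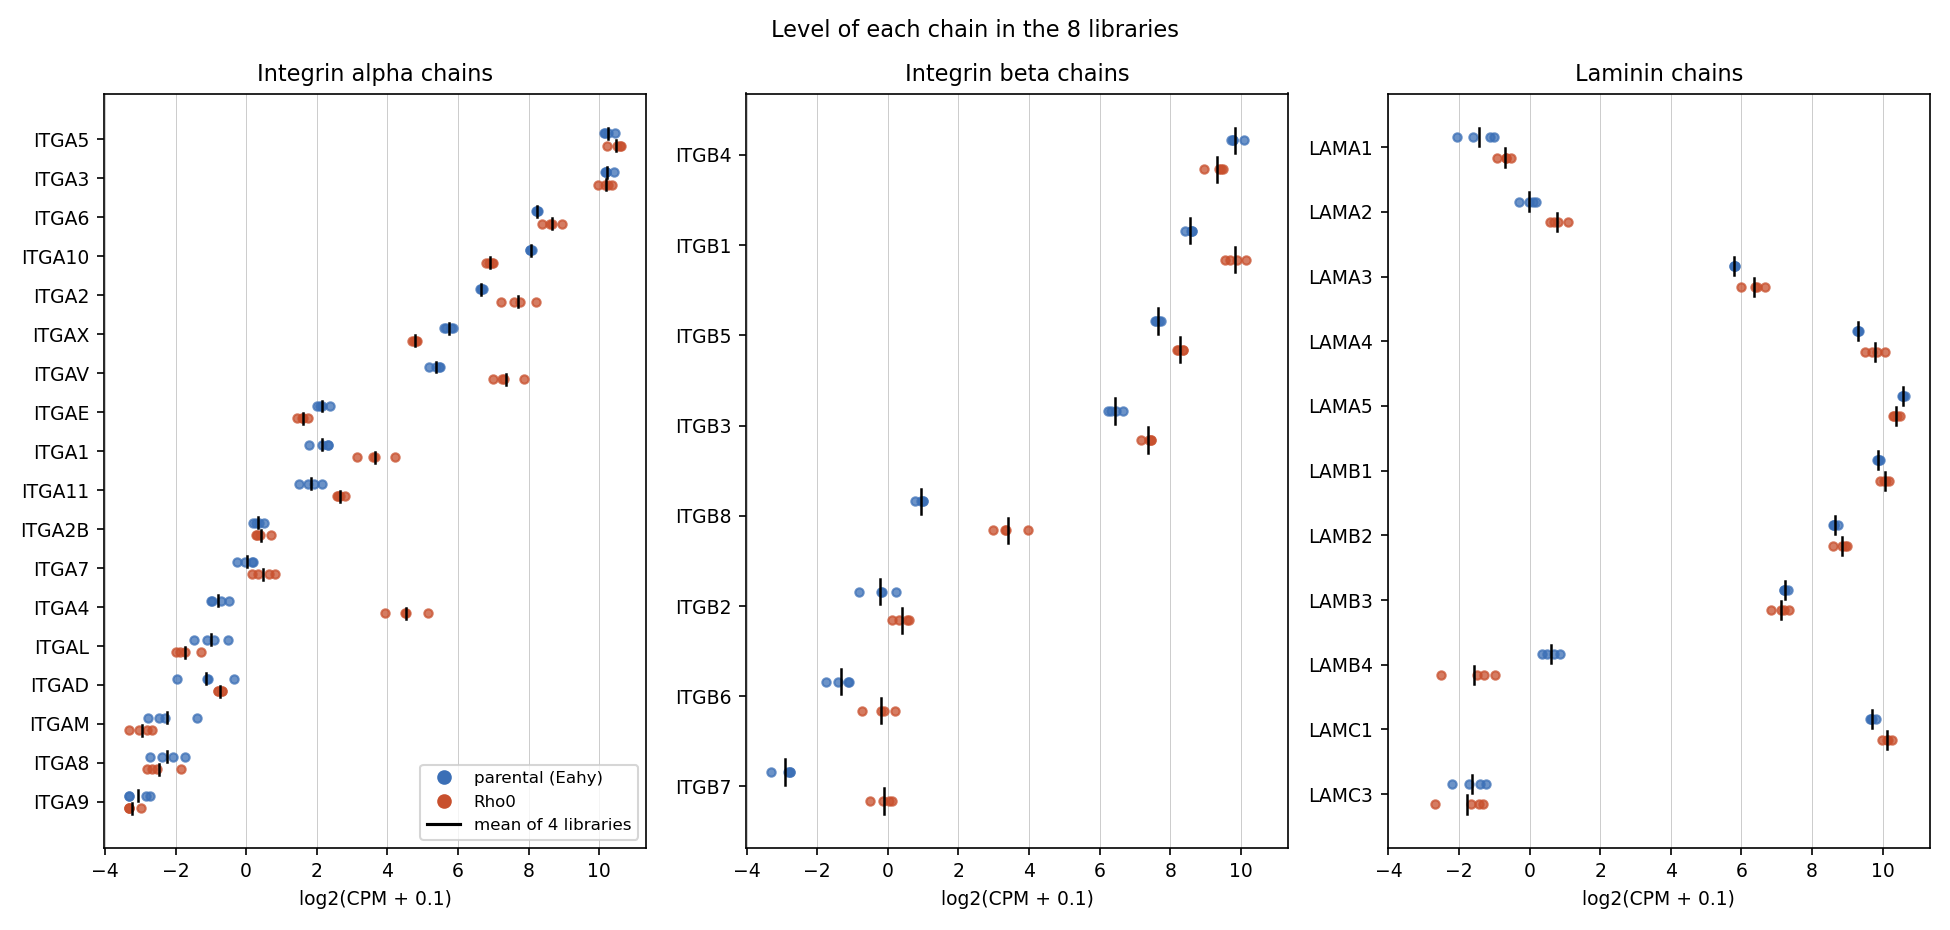
Level of 37 chains in the 8 libraries, as log2(CPM + 0.1), with parental libraries in blue, Rho0 libraries in red and a line for the mean of 4. ITGA4, ITGB7, ITGB8 and ITGAV show the widest gaps upward, and LAMB4, ITGA10 and ITGAX lie lower in Rho0.

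Of the laminin alpha chains, LAMA4 rose and LAMA5 did not pass the test. LAMA4 (ENSG00000112769; chromosome 6, 112108760 to 112254939), the alpha chain that marks vessel walls, had 619, 644, 627 and 635 CPM in the parental libraries and 719, 834, 917 and 1077 CPM in Rho0, with no overlap. It was 1.40-fold higher (log2 fold change 0.49, standard error 0.12, adjusted p = 0.00455 by edgeR).

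LAMA5 (ENSG00000130702; chromosome 20, 62307955 to 62367312), the alpha chain of mature endothelial and epithelial basement membranes, had 1500.1, 1527, 1591 and 1535 CPM and 1289.9, 1442, 1251 and 1348 CPM. Each Rho0 library lay below each parental library, yet the gene was not called (log2 fold change -0.21, standard error 0.09, adjusted p = 0.0742 by edgeR). It was called lower without Rho0 replicate 2 (-0.27, adjusted p = 0.0227 by edgeR) and when each library was corrected for GC and transcript length (-0.39), and its sign turned to 0.19 when scaled by library size alone.

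The ratio of LAMA4 to LAMA5 does not depend on that scaling. In CPM per kilobase it was 0.721, 0.736, 0.687 and 0.722 in parental replicates 1 to 4 and 0.973, 1.01, 1.28 and 1.39 in Rho0 replicates 1 to 4. The means were 0.717 ± 0.0209 and 1.16 ± 0.205 (SD, n = 4 each), and the libraries of the lines did not overlap. Among all laminin alpha message per kilobase, LAMA5 held 56.9 ± 0.704% in the parental line and 45.1 ± 4.36% in Rho0, and LAMA4 held 40.8 ± 0.694% and 51.8 ± 4.10%. Which of them leads in the parental line rests on the transcript length used: with the median length over coding transcripts, LAMA4 held 72.6% and LAMA5 26.1% there, and 80.3% and 18.1% in Rho0. For LAMA4 that median is 895 bases, against 6547 for its transcript with the longest coding sequence, and for LAMA5 6074.5 against 11426. The median thus rests on short annotated transcripts, most of all for LAMA4.

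LAMA3, the alpha chain of the laminin that binds hemidesmosomes, rose from 55.3, 56.3, 56.1 and 55.1 CPM to 63.6, 82.7, 86.1 and 102 CPM (log2 fold change 0.59, standard error 0.12, adjusted p = 0.00203 by edgeR). Parental libraries lay close together, while Rho0 libraries spread widely, replicate 4 highest. LAMA2, the muscle chain, was at 0.716 to 1.03 CPM and 1.40 to 2.01 CPM and was higher in Rho0 (log2 fold change 0.88, standard error 0.20, adjusted p = 0.00389 by edgeR). LAMA1, the chain of early embryonic basement membrane, was at 0.140 to 0.398 and 0.428 to 0.600 CPM, and an antisense RNA covers 10.3% of its exon bases. It passed narrowly (log2 fold change 0.85, standard error 0.33, adjusted p = 0.0491 by edgeR), and its call was lost without parental replicate 1, 3 or 4 or Rho0 replicate 1, 2 or 3 (log2 fold change 0.63 to 0.97, adjusted p = 0.0584 to 0.138 by edgeR). Of the 15 alternative ways of processing that could fit LAMA1, 4 called it higher. LAMA1 also reached the count filter in Rho0 libraries alone.

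The abundant laminin beta chains were not called, and the scarce LAMB4 fell. LAMB1, the most widely used beta chain, had 915, 934, 964 and 948 CPM in the parental libraries and 981, 1061, 1091 and 1168 CPM in Rho0. Its groups did not overlap, but the difference did not pass (log2 fold change 0.19, standard error 0.09, adjusted p = 0.0783 by edgeR) except without Rho0 replicate 1 (0.21, adjusted p = 0.0483 by edgeR) among the fits that left out a library. LAMB2, the beta chain of synapse and kidney glomerulus, had 389, 393, 428 and 390.1 and 507, 489.7, 462 and 384 CPM (log2 fold change 0.20, standard error 0.09, adjusted p = 0.0825 by edgeR). Rho0 replicate 4 lay below all 7 other libraries, and without it LAMB2 was called higher (0.27, adjusted p = 0.00397 by edgeR). Of 17 alternative ways of processing, 4 called LAMB1 higher and 4 called LAMB2 higher.

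LAMB3, the beta chain of the hemidesmosomal laminin, had 146, 148, 159.9 and 151 and 164, 146, 139 and 114 CPM, overlapping (log2 fold change -0.10, standard error 0.10, adjusted p = 0.414 by edgeR), and it was at 0.29 and called when scaled by library size alone. LAMB4 (ENSG00000091128; chromosome 7, 108023548 to 108130356), a little-studied beta chain, went from 1.51, 1.71, 1.19 and 1.30 CPM to 0.309, 0.0753, 0.257 and 0.406 CPM. It was 4.78-fold lower in Rho0 with no overlap (log2 fold change -2.26, standard error 0.30, adjusted p = 1.1e-04 by edgeR).

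LAMC1, the gamma chain of nearly all laminins, rose. It had 829, 820.2, 898 and 794 CPM in the parental libraries and 1009, 1116, 1141 and 1232 CPM in Rho0, with no overlap (log2 fold change 0.43, standard error 0.09, adjusted p = 0.00243 by edgeR).

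Message of LAMA3 and LAMB3, chains of the hemidesmosomal laminin, was unequal in amount. In CPM per kilobase, LAMB3 stood at 35.1 ± 1.42 and 32.7 ± 4.77 in the parental and Rho0 lines and LAMA3 at 5.23 ± 0.0567 and 7.85 ± 1.49 (SD, n = 4 each). The ratio of LAMA3 to LAMB3 was 0.142 to 0.154 in parental libraries and 0.157 to 0.361 in Rho0 libraries, and it was higher in each Rho0 library than in any parental library. With the median length the ratio was 0.341 ± 0.0129 and 0.571 ± 0.194.

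Summed over laminin chains with the main transcript length, message per kilobase was 236 ± 3.84 and 260.2 ± 26.0 for alpha chains and 269 ± 7.86 and 300.4 ± 3.67 for beta chains (CPM per kilobase, parental and Rho0, SD, n = 4). With the median length the alpha sum was 972 ± 13.96 and 1230.2 ± 173 and the beta sum 445 ± 11.7 and 501 ± 13.8. Within the beta chains, LAMB1 held 60.6 ± 0.652% and 62.1 ± 4.64%, LAMB2 26.2 ± 0.543% and 27.0 ± 3.09% and LAMB3 13.1 ± 0.152% and 10.9 ± 1.58%, and the shares of LAMB1 and LAMB2 overlapped between the lines.

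**Figure D3:**
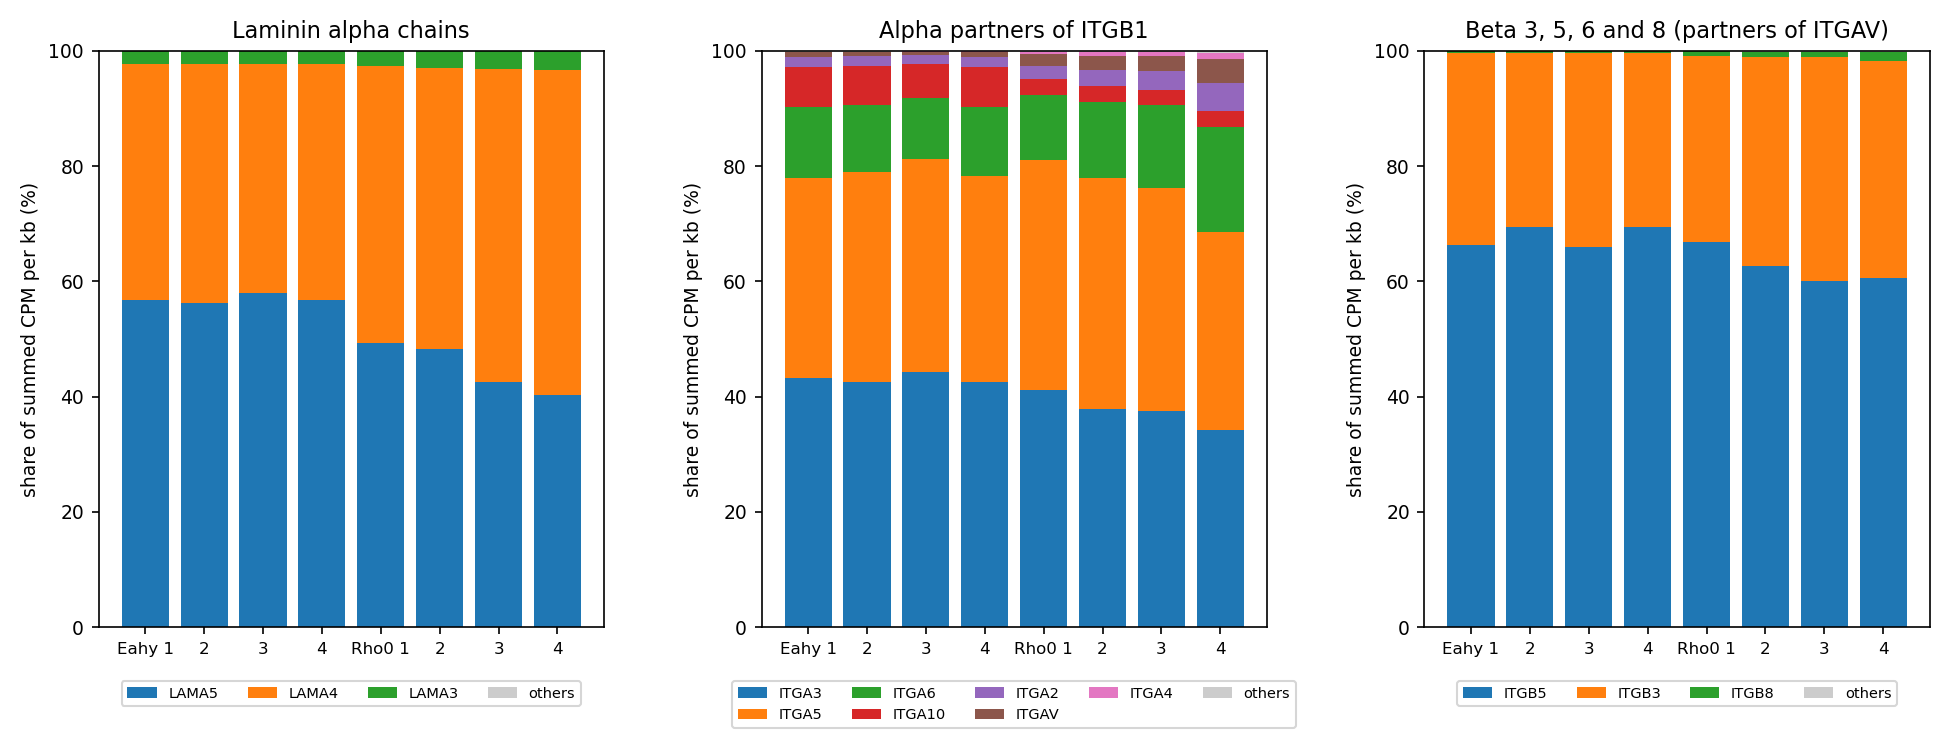
Share of each chain in the summed CPM per kilobase of its family in each library (%), for laminin alpha chains, alpha partners of ITGB1 and beta partners of ITGAV. LAMA5 holds at least 56.3% in parental libraries and at most 49.3% in Rho0, and ITGA10 goes from a mean of 6.67% to 2.70% of the ITGB1 partners.

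Levels of the chains, compared per kilobase, were led by ITGA3 and ITGA5 in both lines when each gene was divided by the length of its transcript with the longest coding sequence. ITGA3 stood at 329.9 ± 28.2 and 318 ± 35.8 CPM per kilobase and ITGA5 at 275 ± 25.6 and 323 ± 36.5 (parental and Rho0, SD, n = 4), and the ranges of these 2 overlapped in each line. In the parental line the next were LAMB1 (163), ITGB4 (156) and LAMA5 (135), of which LAMB1 and ITGB4 overlapped. ITGB1 ranked 7 in the parental line at 101 ± 6.35 and 3 in Rho0 at 245 ± 44.9, where it overlapped its neighbours ITGA3 and LAMB1. ITGB4 moved from rank 4 to rank 9 and ITGA4 from rank 28 to rank 19. ITGB1 was below ITGB4 in all parental libraries and above it in all Rho0 libraries (ratios 0.500 to 0.739 and 1.72 to 3.64).

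These ranks rest on the transcript length used, which differs most for ITGB1 (3729 bases, and 569 as the median over its coding transcripts). With the median length, LAMA4 (705 CPM per kilobase) and ITGB1 (663) led in the parental line and ITGB1 (1607) and LAMA4 (991) in Rho0. ITGB1 was then above ITGB4 in all 8 libraries, with ratios of 4.05 ± 0.663 and 14.5 ± 5.45 (SD, n = 4). The ratio was still higher in each Rho0 library than in any parental library.

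Relative to ITGB1, the alpha chains that can pair with it had less message in Rho0. Summed over these chains, message per kilobase was 764 ± 51.7 in the parental line and 843 ± 37.6 in Rho0. Divided by ITGB1, the ratio was 7.05, 7.25, 9.16 and 6.93 in the parental libraries and 4.28, 3.96, 3.32 and 2.59 in Rho0. Parental replicate 3 was the highest and Rho0 replicate 4 the lowest, and the lines did not overlap (means 7.6 ± 1.05 and 3.54 ± 0.746, SD, n = 4). With the median transcript length the ratio was 1.78 ± 0.258 and 0.828 ± 0.188, again without overlap, so whether alpha message exceeded ITGB1 in Rho0 rests on the length. ITGA6 and ITGAV also pair with other beta chains, so the ratio does not count receptors.

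Within the ITGB1 partners, ITGA3 held 43.1 ± 0.788% and 37.7 ± 2.79%, ITGA5 35.9 ± 1.05% and 38.3 ± 2.74% and ITGA6 11.6 ± 0.814% and 14.3 ± 2.95%, the last 2 with overlapping ranges. ITGA10 went from 6.67 ± 0.472% to 2.70 ± 0.121%, while ITGA2 went from 1.69 ± 0.137% to 3.26 ± 1.10% and ITGA4 from 0.0151 ± 0.00241% to 0.692 ± 0.276%. For ITGAV the beta side was in excess: the sum of ITGB3, ITGB5, ITGB6 and ITGB8 over ITGAV was 10.6, 10.6, 14.4 and 10.4 in the parental libraries and 6.16, 5.53, 5.0 and 3.33 in Rho0. Here too each Rho0 library lay below each parental library (means 11.5 ± 1.93 and 5.01 ± 1.21, SD, n = 4). With the median transcript length the means were 33.7 ± 5.20 and 14.002 ± 3.73, also without overlap. ITGB5 held 67.8 ± 1.94% and 62.5 ± 3.09% of that sum, or 88.7 ± 0.886% and 86.2 ± 1.54% with the median length. The lines overlapped with either length. No test was run on shares and ratios. Of 31 mean shares, 14 of the parental line and 17 of Rho0, 29 moved by more than their SD when the median transcript length was used. These 31 did not cover every chain.

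**Figure D4:**
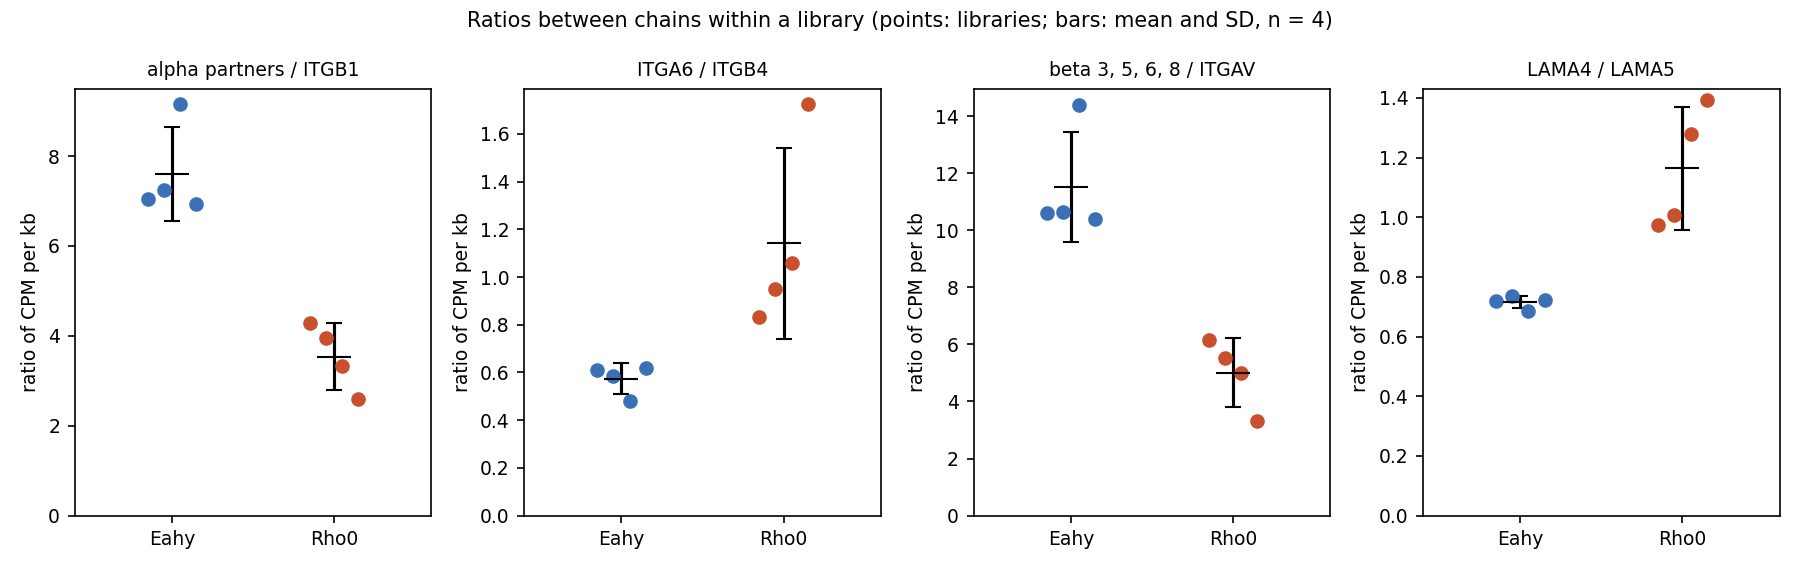
Ratios between chains within each library in CPM per kilobase, as points for the 4 libraries of each line with mean and SD. The 4 panels show alpha partners over ITGB1, ITGA6 over ITGB4, beta partners over ITGAV and LAMA4 over LAMA5, and the lines do not overlap in any panel.

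Several members are neighbours in the genome. ITGA1 and ITGA2 lie 30.1 kb apart on chromosome 5 with no coding gene between them, and both rose (log2 fold changes 1.57 and 1.08). LAMB1 and LAMB4, 20.3 kb apart on chromosome 7, differed: LAMB1 was not called (0.19) and LAMB4 fell (-2.26). Their promoters printed above hold 21 CG dinucleotides in 156 bases and 1 in 250. The 250-base windows of ITGB6 and ITGB7, both called higher, held 0 and 2. A link between CG content and the change of a chain was not tested. On chromosome 16, ITGAX lies between ITGAM and ITGAD, and ITGAX was called lower and ITGAD was not called, while ITGAM did not pass the filter. Coordinates are those of GENCODE 29 on GRCh38.

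Genes of the pathway outside the chains were taken from 5 lists of textbook components, and those named beside the largest changes (TLN1, ILK, NID1, HSPG2, DAG1, RPSA, VTN, VCAM1 and MADCAM1) were picked after their values were seen. The proteins that link integrins to actin and signalling were divided, with 19 of 64 higher and 22 lower and a median log2 fold change of 0.05, as over all genes. The docking protein NEDD9 rose from 1.2 to 10.2 CPM (log2 fold change 3.07). FERMT3, the kindlin of blood cells, fell from 56.6 to 12.7 CPM (-2.16), and KANK3, an endothelial adaptor, from 99.4 to 16.6 CPM (-2.58). The talin gene TLN1 (628 and 645 CPM) and the kinase gene ILK (159 and 149 CPM) were not called. Scaled by library size alone, this list had 39 higher and 7 lower, where 56.5% of all genes were higher and 10.1% lower.

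Hemidesmosome and tetraspanin partners, which gather around ITGA6 and ITGB4, had 2 of 11 higher and 6 lower, with a median of -0.35. The tetraspanin CD82 fell from 179 to 55.2 CPM (-1.70), TSPAN4 by 0.76 on the log2 scale, and the hemidesmosomal collagen COL17A1 from 148 to 97.7 CPM (-0.60). ITGB4 itself fell as described above. With libraries scaled by size alone, the list had 5 higher and 3 lower and its median was 0.04, against 0.44 over all genes, so its direction relative to zero rests on the scaling.

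Other basement membrane proteins had 8 of 16 higher and 3 lower, with a median of 0.19. FBLN2, a fibulin that binds laminin, had 0, 0.0795, 0.103 and 0 CPM in the parental libraries and 5.05, 5.58, 5.32 and 5.59 CPM in Rho0, so it was at or near 0 in the parental line. FRAS1 rose from 5.84 to 32.1 CPM (2.46), and NTN4, a netrin that binds laminin gamma chains, from 27.4 to 98.4 CPM (1.84). The laminin cross-linker NID1 rose from 96.2 to 137 CPM (0.51), and the perlecan gene HSPG2 was not called (6734 and 6559 CPM).

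Laminin receptors other than integrins had 11 of 19 higher and 1 lower, with a median of 0.28. The dystrophin gene DMD rose from 2.88 to 9.93 CPM (1.80) and the Lutheran glycoprotein gene BCAM from 24.0 to 53.8 CPM (1.16). UTRN, the widely expressed relative of dystrophin, went from 218 to 365 CPM (0.74) with overlapping groups, and it lost its call without parental replicate 3 (0.71, adjusted p = 0.0530 by edgeR). The dystroglycan gene DAG1, which encodes the receptor that DMD and UTRN anchor, was not called (256 and 247 CPM). The single lower gene was RPSA (-0.70), a ribosomal protein gene also known as a laminin receptor.

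Integrin ligands other than laminin and collagen had 16 of 31 higher and 8 lower, with a median of 0.38. FN1, which encodes fibronectin, the ligand of ITGA5, ITGA4 and ITGAV receptors, had 131, 133, 155 and 126 CPM in the parental libraries and 1306, 1709, 1778 and 2130.4 CPM in Rho0 (log2 fold change 3.67, standard error 0.16, adjusted p = 2.2e-08 by edgeR). LTBP1, which stores latent TGF-beta in the matrix, went from 3.72, 3.94, 4.33 and 3.21 CPM to 134, 138, 138 and 145 CPM (5.19). CCN2, a matricellular ligand of several integrins, rose from 20.6 to 120.0 CPM (2.54). The vitronectin gene VTN was low and fell from 2.19 to 0.635 CPM (-1.84). MADCAM1, the gut ligand of the ITGA4 and ITGB7 pair, stood at 0.278 to 0.516 and 0.678 to 1.35 CPM.

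**Figure D5:**
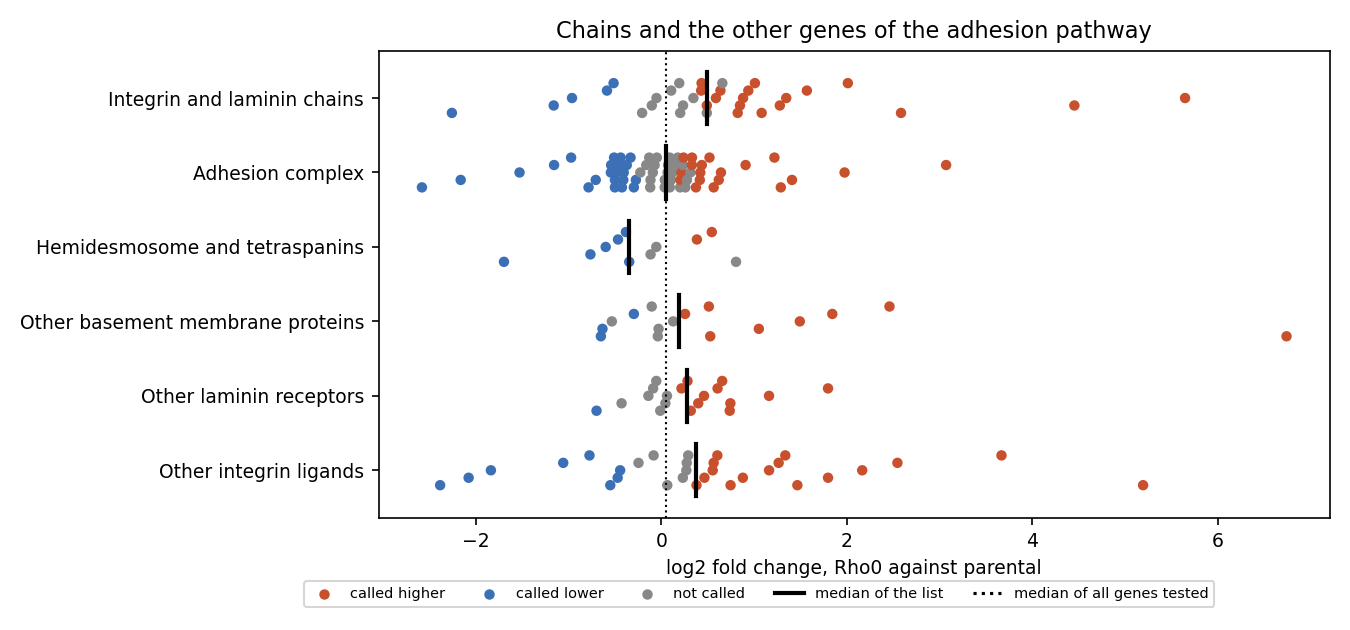
Log2 fold change of each tested gene of the chains and of 5 pathway lists, Rho0 against parental, coloured by the edgeR call, with the median of each list and of all genes. The chains have a median of 0.49, and the hemidesmosome list one of -0.35, which scaling by library size alone turns to 0.04.

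Markers of cell types that express particular chains were read beside them. Epithelial markers, the setting in which ITGB4, ITGB6 and LAMA3 are best known, summed to 2624 to 2897 CPM in parental and 1339 to 2132 CPM in Rho0 libraries. That sum was almost all KRT7, KRT8 and KRT18, and 11 of 17 markers were under 1 CPM in both lines. Of the 10 tested, 3 were higher and 4 lower, so the list did not move together, and its median log2 fold change was -0.26. Among the lower ones were KRT8 and KRT18 (-1.21 and -0.89), which belong to the keratins that make up the sum. Scaled by library size alone, 4 were higher and 4 lower, with a median of 0.13. The part of the epithelial markers in the fall of ITGB4 and of the hemidesmosome list was not tested.

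Leukocyte markers summed to 99.9 to 123 and 125 to 145 CPM, of which CD68, a lysosomal protein, made up the most. CD3E, CD3D, CD2 and MS4A1 were at 0 in all libraries, and 11 of 16 markers were under 1 CPM in both lines. Of the 5 tested, 4 were called higher and 1 lower. With the replicate block, 3 were called higher. Without Rho0 replicate 3 the count was 2, and DESeq2's Wald test called 2 of 8 higher. LYZ, the lysozyme gene, rose from 1.40 to 5.10 CPM (1.87), PTPRC, the leukocyte common antigen, from 0.656 to 1.02 CPM (0.66) and CORO1A from 1.58 to 2.30 CPM (0.53). CD68 rose by 0.29 on the log2 scale, a call lost without Rho0 replicate 3 (0.26, adjusted p = 0.0585 by edgeR), and CSF1R fell from 1.45 to 0.516 CPM (-1.42). Their part in the values of ITGA4, ITGB7 and ITGAX was not tested. Fibroblast and mural markers summed to 280 to 303 and 134 to 204 CPM, mostly RGS5, and of the 8 tested 3 were higher and 3 lower. Platelet markers summed to 1.81 to 2.52 and 3.95 to 5.95 CPM. Of these 8 markers, 7 were under 1 CPM in both lines, and the 1 tested was called higher (1.44). Of 15 endothelial markers tested, 5 were higher and 5 lower, with a median log2 fold change of -0.02 that was 0.38 when scaled by library size alone.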

How the data were processed

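RNA-seq of 4 parental and 4 Rho0 libraries was used. The authors deposited estimated counts per Ensembl gene, with kallisto, limma, edgeR and build GRCh38 listed, without versions or roles, in the submitters' processing notes. The log2 table the authors deposited (12885 genes, 31 of the members) equals log2(scaled count + 1) within 0.001 for 97.8% of 11402 genes compared, and served as an alternative. Symbols were found for 34284 of 38010 IDs, 19555 of them protein-coding, and gene positions and lengths came from GENCODE 29.

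Estimated counts were rounded and tested with edgeR 4.0.16 in R 4.3.3: TMM scaling, a minimum count of 10 by its expression filter, quasi-likelihood F-tests and Benjamini-Hochberg adjustment over 15184 genes, called at 0.05. The standard error is the size of the log2 fold change over the square root of F. CPM per kilobase divides by the length of the coding transcript with the longest coding sequence. TMM factors were 0.801 to 0.921 in parental and 1.11 to 1.19 in Rho0 libraries. The biological coefficient of variation was 13.7%. The fit was tested on simulated data. DESeq2 1.42.0, limma 3.58.1, Python 3.11.15, pandas 2.3.3, numpy 2.4.6 and matplotlib 3.10.9 were also used. Replicates differed by more than sampling noise (lowest chi-square per degree of freedom 4.21).

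All members were named, and from each pathway list the up to 3 called genes with the largest change and at least 5 CPM in the higher line. Members and lists were chosen with earlier results of these data known. Alternatives covered scaling, filters, other tools, the replicate block, transcript length and leaving out each library. 1 member counted in the totals is not reported here by itself. Intervals cover counting error only.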

Additional observations from a re-analysis of the deposited data

Results flagged for a closer look

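In 5 of 66 groups of 4 libraries, 1 per tested chain and line, the highest or lowest library stood apart from the others by more than Dixon's 95% critical value. Chance flags about 1 in 20 groups. All 5 were parental replicate 3. It was the highest library for ITGA3 at 1363 CPM (the others 1141 to 1167), for ITGB4 at 1087 CPM (844 to 880.0) and for LAMB2 at 428 CPM (389 to 393). It was the lowest for ITGB1 at 342 CPM (384 to 393) and for ITGB7 at 0 CPM, where each other parental library held 1 count. The same library had the highest share of mitochondrially encoded mRNA (21.4%) and the lowest TMM factor (0.801), and their part in these values was not tested. Without it, 18 chains were higher and 5 lower.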

How the results depend on the processing

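Under 17 alternatives, 507 of 550 values of single chains kept their direction and side of the threshold, 24 passed it only there, 13 lost it and 6 changed sign. Of the 23 called chains, 20 kept their call in each alternative that could fit them, 16 of them in all 17 and ITGB6, ITGB7, LAMA2 and LAMB4 in 16, since the filter of 50 counts removed them. The exceptions were LAMA1, and ITGAE and ITGB4 under library size alone. Scaled by library size alone, 3 chains were lower, and ITGA3 (0.34), LAMA5 (0.19) and LAMB3 (0.29) changed sign. Leaving out 1 library at a time gave 17 to 21 chains higher and 5 to 6 lower, ITGA3 between -0.14 and 0.011 and ITGA2B between -0.038 and 0.17. Same-numbered libraries correlated at -0.13 to 0.16 in their deviations, so the labels' numbers were not treated as pairs. With the replicate block, 18 chains were higher and 5 lower.

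LAMA5 was also called lower by DESeq2's Wald test (-0.25), by limma-trend on the log2 table (-0.21), without mitochondrially encoded genes in the totals (-0.22) and, as an alternative added after seeing the data, when corrected for GC and length (-0.39). That correction called 21 chains higher and 6 lower. On the log2(value + 1) scale of the deposited table low genes moved less, with LAMB4 at -0.95, ITGB6 at 0.46, ITGA4 at 4.05 and ITGB7 at 0.85. A check also added after seeing the data covered 26 list and marker genes. They were chosen per list for the largest called change and at least 5 CPM in the higher line. Of their 442 values, 440 kept their call, UTRN and CD68 losing theirs once each. Other genes named above, among them PTPRC, CORO1A, CSF1R, NID1, RPSA and VTN, were outside this check. With the replicate block, the leukocyte markers called higher went from 4 to 3. LYZ and CD68 kept their calls there, so PTPRC or CORO1A lost its call. Depth limits the 5 chains that failed the filter, which had at most 13.3 counts in any library.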
